A study of Mus musculus with 32 samples.

Results

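Platelet-derived growth factor (PDGF) signalling was examined through its 2 receptor genes, Pdgfra and Pdgfrb, and its 4 ligand genes, Pdgfa, Pdgfb, Pdgfc and Pdgfd, in mRNA of whole mouse lung. These 6 genes were taken by name from the 35715 gene names on the array, and 8 of its 55681 mouse probes carry one of them. Pdgfa and Pdgfb have 2 probes each and the other genes have 1. Every one of the 8 probes was well above background on all 32 arrays, so no member was lost to a filter on dim probes.

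The lungs came from 32 newborn wild-type C57Bl/6J mice in 8 groups of 4. Pups breathed 21% O2 (normoxia) or 85% O2 (hyperoxia, which models the arrested alveolarization of bronchopulmonary dysplasia), received injections of antagomiR-scrambled (SCR) or antagomiR-34a (A34a) in the first days of the exposure, and were studied at post-natal day (P)5 or P14. An antagomiR, or antimiR, is a modified oligonucleotide that pairs with a microRNA and dampens its function; the scrambled one has no intended partner, and no group went without an injected oligonucleotide. Lungs were cleared of blood by perfusion with saline, and each array holds the RNA of 1 mouse. The sample records give pentobarbital for P5 and isoflurane for P14, so the anaesthetic changed with age. The arrays lay on 4 slides of 8, each slide with a single age and a single oxygen level, so that oxygen and slide, like age and slide, cannot be told apart. Within every slide SCR filled array row 1 and A34a filled row 2, and antimiR and array row cannot be told apart either. All 10 epithelial markers, Sftpc among them, were well above background in every mouse. Most markers of other cell types were too, so detection alone does not establish tissue identity.

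PDGF ligands are dimers that bring 2 receptor chains together, whereupon the chains phosphorylate each other and recruit adaptor proteins, kinases and phosphatases. In the growing lung, epithelial PDGF-A acts on mesenchymal cells that carry PDGFRα, among them the precursors of the elastin-producing myofibroblasts at the tips of secondary septa. PDGF-B from endothelium acts on PDGFRβ and recruits pericytes, while PDGF-C and PDGF-D are secreted in a latent form that proteases must open. MicroRNA-34a-5p was the microRNA the study blocked, and Pdgfra is the target the study pursued.

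The microRNA and the stretch of the Pdgfra probe that is complementary to its seed are shown because the study's question joins them. The seed (bases 2 to 8) is in capitals in the first, and the 7 letters ACTGCCA are in capitals in the second. The microRNA sequence is that of RefSeq (GRCm38.p6, chr4:150068473-150068494, plus strand) and the probe sequence is that of the array files.
miR-34a-5p: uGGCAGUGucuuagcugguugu
Pdgfra probe, 30 of its 60 bases: gacttggagaatACTGCCAaaatgtgtatg

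The first 6 of these letters, ACTGCC, pair with bases 2 to 7 of the microRNA, and the closing A stands opposite its base 1. The longer match to bases 2 to 8, CACTGCC, is not in the probe. Of the 8 member probes only that of Pdgfra holds ACTGCC or ACTGCCA as listed, and none holds either on the opposite strand. Among all mouse probes ACTGCC was found in 1.3% as listed and in 1.29% on the opposite strand, and ACTGCCA, which contains it, in 0.478% and 0.49%. In the RefSeq table used, the same 7-base seed was found in miR-34b-5p, miR-449a-5p and miR-449c-5p. The search covered that table alone, so the absence of miR-34c-5p, a family member the study measured, does not show that it lacks this seed. The study's methods list a target site blocker, an oligonucleotide meant to cover a miR-34a site in the 3′-UTR of Pdgfra, and its bases are the reverse complement of letters in the stretch shown, ACTGCCA included. Binding was not measured by these arrays, and the match describes letters in a 60-base window.

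In the coordinates of the array files (mm9) the Pdgfra probe lies on the plus strand at chr5:75593888-75593947 and the Pdgfrb probe on the plus strand of chr18:61244606-61244665. Those of Pdgfa overlap on the minus strand, at chr5:139452934-139452993 and chr5:139452925-139452984. For Pdgfb they lie apart on the minus strand, at chr15:79826376-79826435 and chr15:79827438-79827497. Pdgfc was read on the plus strand at chr3:81017572-81017631 and Pdgfd on the plus strand at chr9:6376926-6376985. Beyond what the methods' blocker says of the Pdgfra probe, exons and untranslated regions were not assigned here.

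Levels are log2 of the processed signal minus the array's own 75th percentile of it, so that a value of 0 is the brightness that 25% of probes exceed, and 1 unit is a doubling. Levels are compared between mice for 1 probe and never between probes. Where a gene has 2 probes, the brighter is reported and the other is given where they part. Differences were tested with limma across all tested probes of the mice concerned, with Benjamini-Hochberg adjustment over all of them, and "rose" or "fell" is used for an adjusted p below 0.05. Because the lung was measured as a whole, fewer cells of a type and less RNA in each cell cannot be told apart in any value below.

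Pdgfra, the receptor for PDGF-A and PDGF-C, was lower in hyperoxia at both ages, and much more so at P14. At P5 the 4 SCR mice had log2 levels of 1.93, 2.06, 2.09 and 1.95 in normoxia and 0.62, 0.94, 0.69 and 0.76 in hyperoxia. With A34a the P5 levels were 2.00, 2.06, 2.02 and 1.99 in normoxia and 0.69, 0.61, 0.77 and 0.74 in hyperoxia. The oxygen groups did not overlap at P5 under either antimiR. By P14 the SCR levels were 3.09, 3.07, 3.11 and 3.13 in normoxia and 0.38, 0.61, 0.90 and 0.69 in hyperoxia. The P14 levels with A34a were 3.08, 3.11, 3.09 and 3.15 in normoxia and 0.52, 2.28, 0.65 and 0.85 in hyperoxia. The oxygen groups were again separate, and 1 hyperoxic A34a mouse, replicate 2, lay between the rest of its group and the normoxic mice.

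The Pdgfra difference of hyperoxia from normoxia in SCR mice was -1.26 on the log2 scale at P5 (SE 0.07, limma adjusted p = 1.24e-08), a level 2.39-fold lower. The P14 difference was -2.46 (SE 0.28, limma adjusted p = 6.26e-06), a level 5.49-fold lower, with an SE that is pooled over the P14 groups and so takes in the spread of replicate 2. The change of the oxygen effect with age, tested as its own term over all 32 arrays, was -1.20 (SE 0.30, limma adjusted p = 0.00221). In A34a mice the differences were -1.31 for P5 (limma adjusted p = 6.25e-09) and -2.03 for P14 (limma adjusted p = 2.8e-05). Without replicate 2 the latter was -2.43.

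**Figure D1:**
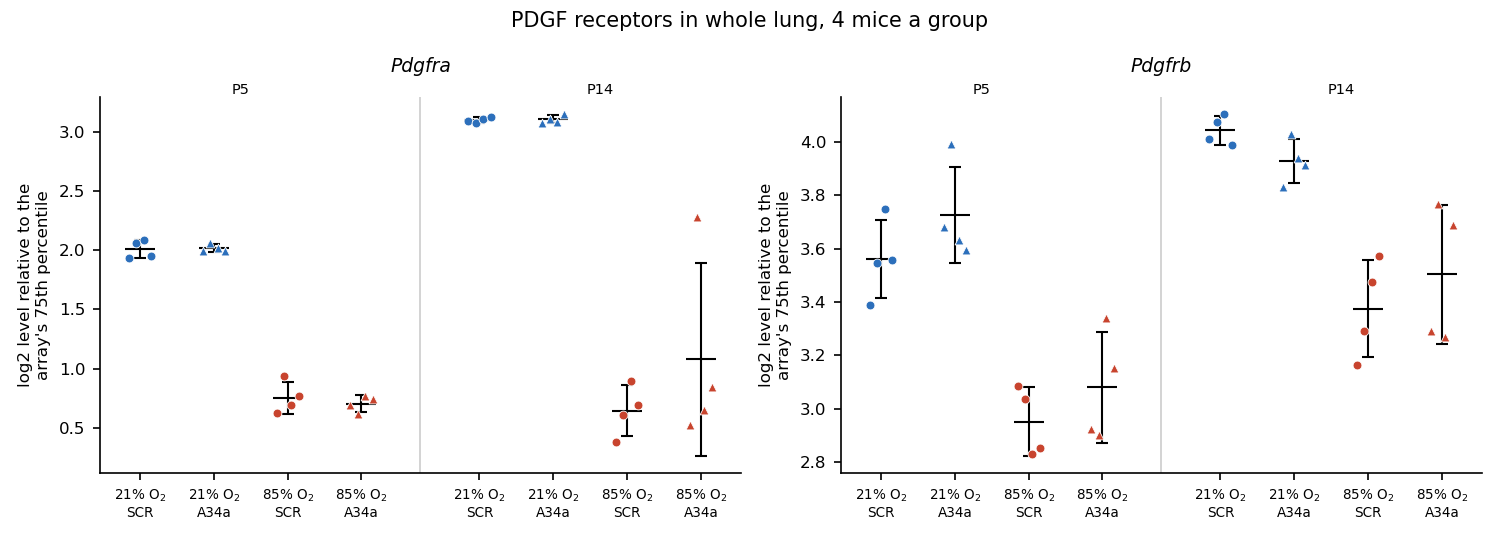
Log2 level of Pdgfra and Pdgfrb relative to the 75th percentile of each array, in 8 groups by age, oxygen and antimiR. Each point is 1 mouse (circles SCR, triangles A34a; blue 21% O2, red 85% O2), and the bar and whiskers are the mean and SD of 4 mice. The normoxic Pdgfra level is near 2.01 at P5 and 3.1 at P14, while 15 of 16 hyperoxic mice lie below 1.

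Across the 8 groups the order of Pdgfra means placed the hyperoxic groups lowest, at 0.64 ± 0.21 (SD, n = 4; P14 SCR), 0.70 ± 0.07 (P5 A34a), 0.75 ± 0.13 (P5 SCR) and 1.08 ± 0.82 (P14 A34a). Each of these overlapped its neighbour, and the highest mouse of the last, replicate 2 at 2.28, lay above the normoxic P5 mice. The normoxic P5 groups followed at 2.01 ± 0.08 and 2.02 ± 0.03 and overlapped each other. A gap of 1.08 without overlap separated them from the normoxic P14 groups, at 3.1 ± 0.02 and 3.11 ± 0.03. Between P5 and P14 Pdgfra thus rose 2.13-fold in normoxic SCR mice (log2 1.09, limma adjusted p = 0.000116). In hyperoxic SCR mice the change with age was -0.11 (limma adjusted p = 0.704).

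Pdgfrb, the receptor for PDGF-B and PDGF-D on pericytes and other mural cells, was also lower in hyperoxia, by a smaller and similar amount at each age. Its P5 SCR levels were 3.39, 3.55, 3.75 and 3.56 in normoxia and 3.09, 3.04, 2.83 and 2.85 in hyperoxia. At P14 the SCR levels were 4.01, 4.07, 4.10 and 3.99 in normoxia and 3.16, 3.29, 3.47 and 3.57 in hyperoxia. Neither pair of groups overlapped. The differences were -0.61 at P5 (SE 0.12, limma adjusted p = 0.00083; 1.53-fold lower) and, for P14 mice, -0.67 (SE 0.12, limma adjusted p = 0.000259; 1.59-fold lower). Their change with age was -0.06 (limma adjusted p = 0.805).

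In A34a mice Pdgfrb at P5 was 3.68, 3.99, 3.63 and 3.6 in normoxia against 2.92, 2.90, 3.34 and 3.15 in hyperoxia. At P14 it was 3.83, 4.03, 3.94 and 3.91 against 3.29, 3.77, 3.27 and 3.69. The oxygen groups were again separate, though at P14 the highest hyperoxic mouse came within 0.1 of the lowest normoxic one. The differences were -0.65 (limma adjusted p = 0.000464) and -0.42 (limma adjusted p = 0.00597; 0.0691 by the methods' approximate test, which takes the spread from that probe and those groups alone). With age Pdgfrb rose in both air conditions in SCR mice, by 0.48 in normoxia (limma adjusted p = 0.00142) and by 0.42 in hyperoxia (limma adjusted p = 0.00523). In contrast to Pdgfra, the order of Pdgfrb group means had no gap without overlap between neighbours, and the means spanned 1.09 log2 units against 2.46 for Pdgfra.

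The receptors were set against each other within each mouse as the Pdgfra level minus the Pdgfrb level, a quantity whose absolute size depends on the probes and of which only the change is read. The P5 SCR mice moved from -1.55 ± 0.10 (SD, n = 4) in normoxia to -2.20 ± 0.18 in hyperoxia, and those of P14 from -0.94 ± 0.07 to -2.73 ± 0.13. The P5 A34a mice moved from -1.71 ± 0.15 to -2.38 ± 0.15, and those of P14 from -0.82 ± 0.08 to -2.43 ± 0.64. The change was -0.65 and -1.79 in SCR mice and -0.67 and -1.61 in A34a mice. In none of the 4 comparisons did the oxygen groups overlap. The exact two-sided permutation p was 0.0286 in each, the smallest that 4 mice against 4 allow, and it remained 0.0286 after adjustment over the 4 comparisons. Pdgfra therefore lay lower relative to Pdgfrb in every hyperoxic group than in its normoxic counterpart.

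Among the ligands, Pdgfa, whose protein reaches Pdgfra-carrying mesenchyme from the epithelium, was higher in hyperoxia at both ages. The SCR levels at P5 were 5.26, 5.29, 5.17 and 4.98 in normoxia and 5.80, 5.66, 5.70 and 5.75 in hyperoxia. At P14 they were 5.38, 5.34, 5.45 and 5.23 in normoxia and 6.21, 6.09, 5.89 and 6.0 in hyperoxia. The groups did not overlap at either age. The differences were 0.55 (SE 0.07, limma adjusted p = 3.06e-05; 1.47-fold) and 0.70 (SE 0.09, limma adjusted p = 2.55e-05; 1.62-fold). Their change with age was 0.15 (limma adjusted p = 0.32).

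In A34a mice Pdgfa was 5.17, 5.22, 5.18 and 5.32 in normoxia and 5.84, 5.68, 5.71 and 5.74 in hyperoxia at P5. At P14 it was 5.34, 5.21, 5.37 and 5.22 in normoxia and 5.97, 5.70, 6.08 and 5.79 in hyperoxia. Hyperoxic mice again had the higher levels without overlap, with differences of 0.52 (limma adjusted p = 4.6e-05) and 0.60 (limma adjusted p = 7.64e-05). In the order of group means all 4 normoxic groups of Pdgfa came first and were separated by 0.38 from the hyperoxic groups, and neighbours on either side of this gap overlapped. Its probes overlap by most of their length and followed each other closely over the 32 mice (Pearson's r = 0.983, across mice that differ in group, given as a description). Pdgfa and Pdgfra thus moved in opposite directions in hyperoxia.

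**Figure D2:**
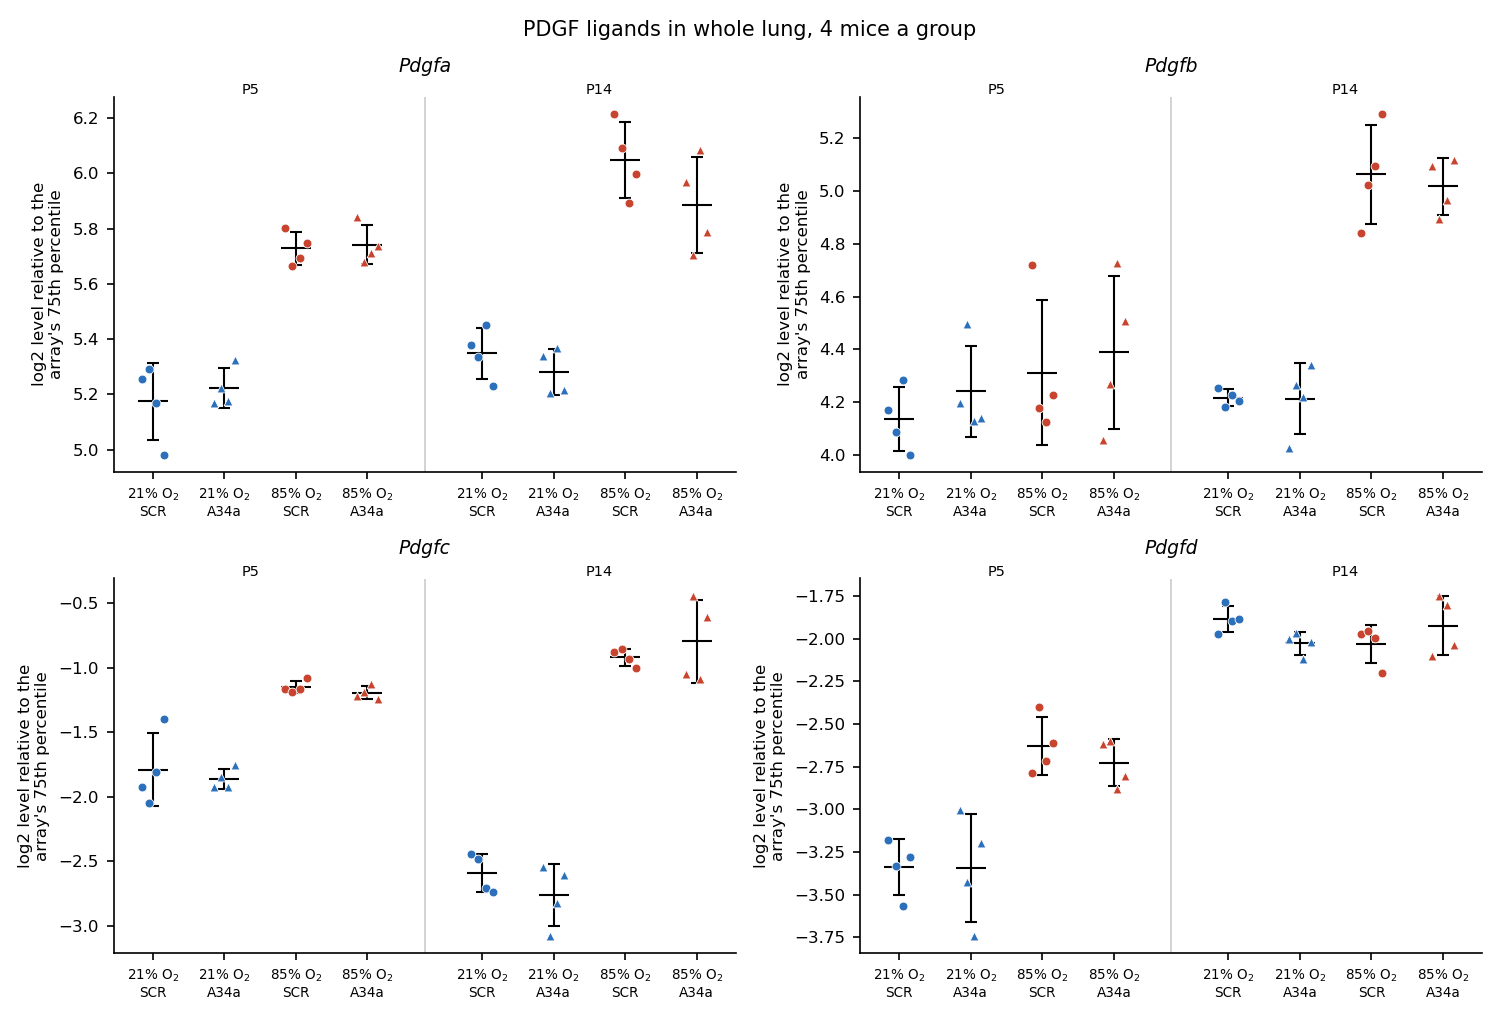
Log2 level of the 4 PDGF ligand genes relative to the 75th percentile of each array, in 8 groups by age, oxygen and antimiR (for Pdgfb, the brighter probe). Each point is 1 mouse (circles SCR, triangles A34a; blue 21% O2, red 85% O2), with the mean and SD of 4 mice. Pdgfa and Pdgfc are higher in hyperoxia at P5 and P14, Pdgfb at P14, and Pdgfd at P5.

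Pdgfb encodes the ligand with which endothelium recruits pericytes, and its brighter probe was higher in hyperoxia at P14, with no change called at P5. Its P5 SCR levels were 4.17, 4.09, 4.28 and 4.00 in normoxia and 4.72, 4.18, 4.12 and 4.23 in hyperoxia, and these groups overlapped. At P14 they were 4.26, 4.18, 4.23 and 4.21 in normoxia and 4.84, 5.02, 5.10 and 5.29 in hyperoxia, with no overlap. The differences were 0.18 at P5 (SE 0.15, limma adjusted p = 0.363) and, for P14 mice, 0.85 (SE 0.09, limma adjusted p = 5.29e-06; 1.8-fold). The change with age was 0.67 (SE 0.18, limma adjusted p = 0.00477).

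A34a mice showed the same order for the brighter Pdgfb probe. Their P5 levels were 4.20, 4.50, 4.13 and 4.14 in normoxia and 4.06, 4.27, 4.73 and 4.51 in hyperoxia. The P14 levels were 4.03, 4.26, 4.22 and 4.34 in normoxia and 5.10, 4.89, 4.96 and 5.12 in hyperoxia. The groups overlapped at P5, where the difference was 0.15 (limma adjusted p = 0.442), and were separate at P14, where it was 0.81 (limma adjusted p = 7.13e-06).

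The dimmer Pdgfb probe gave the reverse timing. In SCR mice it rose by 0.68 in hyperoxia at P5, from -1.67 ± 0.12 to -0.99 ± 0.18 (SD, n = 4; limma adjusted p = 0.000187). At P14 it stood at -0.78 ± 0.05 in normoxia and -0.82 ± 0.27 in hyperoxia, a difference of -0.04 (limma adjusted p = 0.791). Its change with age was -0.72 (limma adjusted p = 0.000841), opposite in sign to that of the brighter probe. In A34a mice it rose by 0.38 at P5 (limma adjusted p = 0.0103), and its P14 difference was 0.04 (limma adjusted p = 0.803). Over the 32 mice the correlation between both Pdgfb probes was only 0.388, as a description. In SCR mice the mean of both probes rose by 0.43 in hyperoxia at P5 (limma adjusted p = 0.000876) and by 0.40 in those of P14 (limma adjusted p = 0.000297). The direction at both ages was therefore upward or not called on either probe, while the age at which Pdgfb responded depended on the probe.

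**Figure D3:**
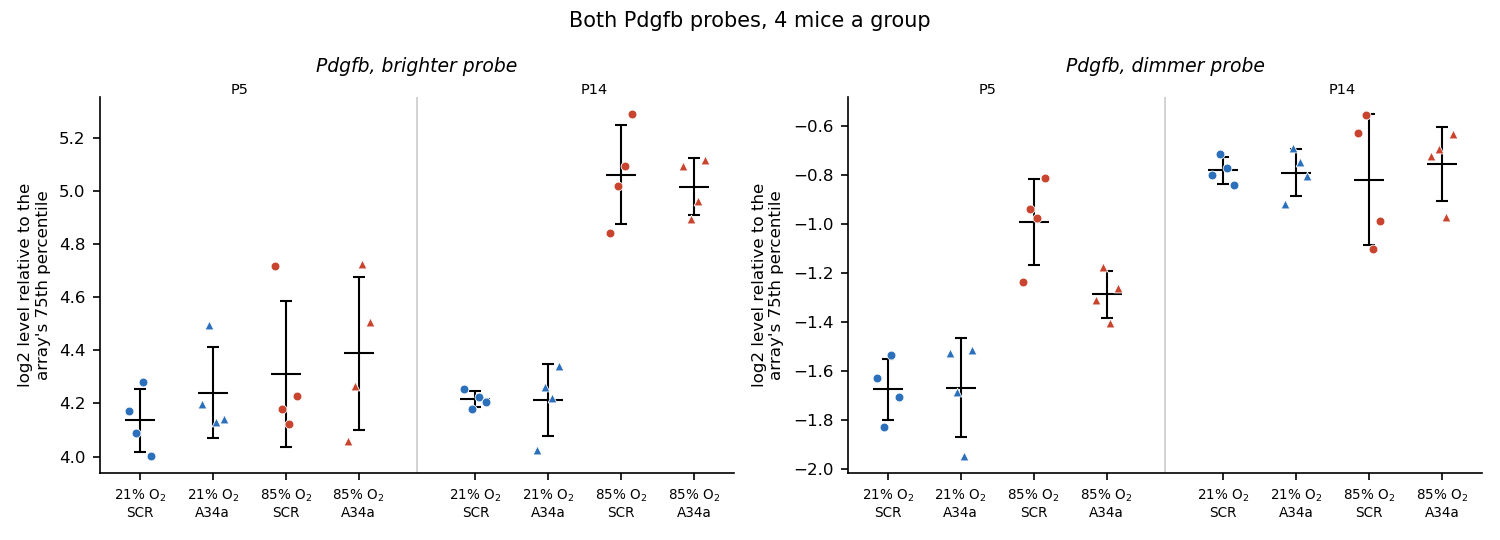
Log2 level of Pdgfb on its brighter probe (left) and its dimmer probe (right), relative to the 75th percentile of each array, with 1 point for each mouse and the mean and SD of 4 mice. The hyperoxic groups stand apart at P14 on the brighter probe (means of 5.06 and 5.02 against 4.22 and 4.21) and at P5 on the dimmer probe (means of -0.99 and -1.29 against -1.67 and -1.67).

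Pdgfc, a ligand of PDGFRα that needs proteolytic opening, had the largest rise of the 4 ligands at P14. In SCR mice at P5 it was -1.92, -2.05, -1.81 and -1.39 in normoxia and -1.16, -1.18, -1.16 and -1.08 in hyperoxia. At P14 it was -2.44, -2.48, -2.70 and -2.74 in normoxia and -0.88, -0.85, -0.93 and -1.0 in hyperoxia. All hyperoxic mice lay above all normoxic mice of the same age. Pdgfc was 1.57-fold higher at P5 (log2 0.65, SE 0.11, limma adjusted p = 0.00024; 0.057 by the methods' approximate test), and 3.19-fold higher in P14 mice (log2 1.68, SE 0.15, limma adjusted p = 6.88e-07). The oxygen effect grew by 1.03 with age (SE 0.19, limma adjusted p = 0.000106).

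The growth of the Pdgfc difference had its larger part in normoxia, where the gene fell by 0.80 between P5 and P14 (limma adjusted p = 1.65e-05), against a change of 0.23 in hyperoxia (limma adjusted p = 0.166). In A34a mice the P5 levels of Pdgfc were -1.92, -1.85, -1.92 and -1.75 in normoxia and -1.22, -1.19, -1.13 and -1.24 in hyperoxia. The P14 levels were -2.54, -3.08, -2.82 and -2.61 in normoxia and -1.04, -0.44, -1.08 and -0.61 in hyperoxia. Here too the oxygen groups did not overlap, and the differences were 0.67 (limma adjusted p = 0.000158) and 1.97 (limma adjusted p = 1.53e-07). From P5 to P14 Pdgfc and Pdgfra thus moved in opposite directions in normoxic SCR mice. In hyperoxic ones neither change was called, although the Pdgfc levels of both ages did not overlap and passed when only those groups were fitted (limma adjusted p = 0.0303; 0.015 by the methods' approximate test).

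Pdgfd, a ligand of PDGFRβ that is also opened by proteases, was higher in hyperoxia at P5 only by the test. At P5 the SCR levels were -3.18, -3.33, -3.57 and -3.28 in normoxia and -2.79, -2.40, -2.71 and -2.61 in hyperoxia, without overlap. By P14 they were -1.97, -1.79, -1.90 and -1.88 in normoxia and -1.97, -1.96, -2.0 and -2.20 in hyperoxia, with overlap. The P5 difference was 0.71 (SE 0.14, limma adjusted p = 0.00109; 1.64-fold), or 0.44 after normexp background correction, and the P14 difference was -0.15 (95% interval -0.34 to 0.04, limma adjusted p = 0.157). The change with age was -0.86 (SE 0.17, limma adjusted p = 0.000257).

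The A34a levels of Pdgfd at P5 were -3.00, -3.43, -3.74 and -3.20 in normoxia and -2.62, -2.60, -2.88 and -2.80 in hyperoxia. At P14 they were -2.0, -1.97, -2.12 and -2.02 in normoxia and -2.10, -1.75, -1.81 and -2.04 in hyperoxia. Only the P5 groups were free of overlap, with a difference of 0.62 (limma adjusted p = 0.00263; 0.37 after normexp; adjusted p = 0.0614 by the methods' approximate test), against 0.10 at P14 (limma adjusted p = 0.307). After quantile normalization, or in the authors' own processed values, this P14 difference was 0.38 and passed the test in both (limma adjusted p = 0.00762 and 0.00745). Pdgfd rose with age in SCR mice in both air conditions, 2.74-fold in normoxia (log2 1.45, limma adjusted p = 4.06e-10) and by 0.60 in hyperoxia (limma adjusted p = 0.000231). The 4 lowest group means of Pdgfd were those of P5, and a gap of 0.60 without overlap parted them from the P14 groups.

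**Figure D4:**
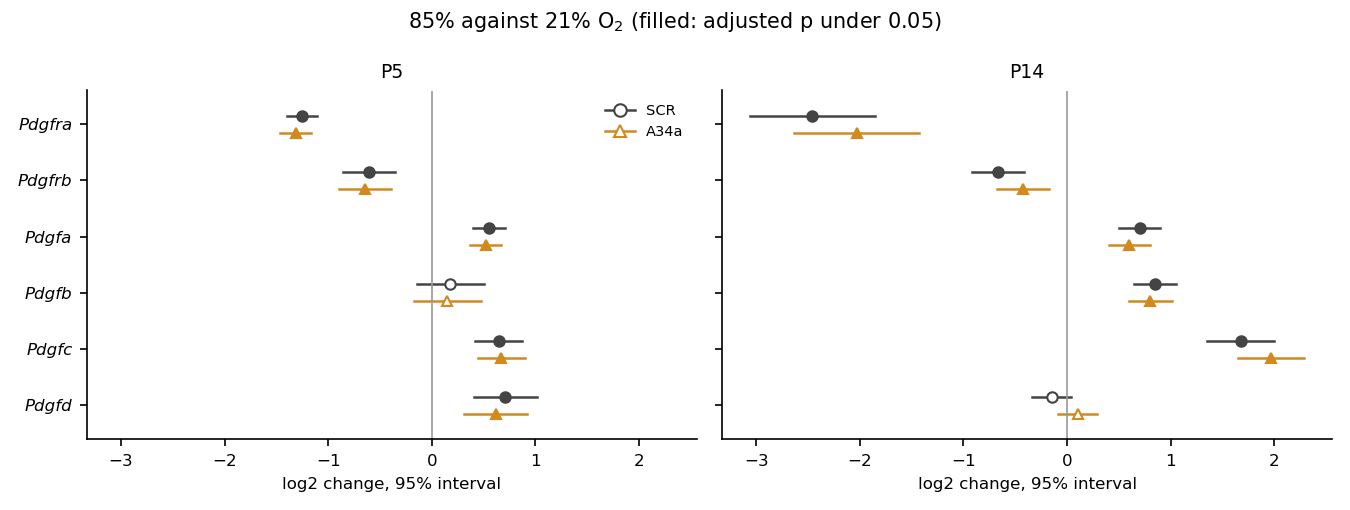
Log2 difference of hyperoxia from normoxia for the 6 PDGF genes at P5 and P14, in SCR mice and in A34a mice, with 95% intervals from limma (4 mice a group). Both receptors lie below 0 and Pdgfa and Pdgfc above it at each age and under each antimiR, Pdgfra falling to -2.46 and Pdgfc reaching 1.97 at P14.

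Counted together, 5 of the 6 genes passed the test for oxygen in SCR mice at P5, 3 of them higher and 2 lower, where 17.5% of all tested probes were called higher and 26.4% lower. At P14 it was again 5 of 6, 3 higher and 2 lower, beside 28.4% and 32.4% of all tested probes. In A34a mice 5 of 6 were called at each age in the same split, against a background of 17.2% higher and 29.5% lower for P5 mice, and for P14 mice of 27.8% higher and 37.8% lower. The median of the 6 differences in SCR mice was 0.36 at P5 and 0.28 at P14, and the median of all tested probes was -0.07 and -0.06. The gene without a call was Pdgfb at P5 and Pdgfd at P14. A large share of all probes differed between the slides of the oxygen levels, and 6 genes are too few to set their count apart from that share. The SCR and A34a comparisons rest on different mice, though on the same slides.

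The background split itself moved with the scaling of the arrays. The share of called probes that were higher in hyperoxia in SCR mice was 39.8% at P5 and 46.6% at P14, against 52.8% at P5 after quantile normalization or in the authors' processed values and 62.8% at P14 after normexp background correction. In A34a mice the shares were 36.7% at P5 and 42.3% at P14, against 49% and 56% after quantile normalization and 53.3% at P14 after normexp. Over these scalings the median of all probes shifted by at most 0.20 for an oxygen comparison. No oxygen difference of Pdgfra, Pdgfrb, Pdgfa or Pdgfc changed sign or lost its call under any of the 4 scalings.

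For age in SCR mice, 4 of the 6 genes were called in normoxia (Pdgfra, Pdgfrb and Pdgfd higher and Pdgfc lower at P14), where 27.8% of all probes were called higher and 23.5% lower. Of the probes called for age in normoxia 54.1% were higher, against 46.4% after quantile normalization and 46.3% in the authors' values. In hyperoxia 4 were called, all higher (Pdgfrb, Pdgfa, Pdgfb and Pdgfd), beside 26% higher and 16.2% lower among all probes. Of the probes called for age in hyperoxia 61.5% were higher, a share that became 47.8% after quantile normalization, 47.2% in the authors' values and 72.9% after normexp. The oxygen effect itself changed with age for 4 of 6 genes (Pdgfra, Pdgfb on its brighter probe, Pdgfc and Pdgfd), beside 40.8% of all probes. Of those probes 56.2% changed upward, and 67.6% after normexp.

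The age values of Pdgfa and Pdgfb depended on scaling and probe. Pdgfa differed between the ages by 0.17 in normoxic SCR mice (limma adjusted p = 0.0747) and rose by 0.32 in hyperoxic SCR mice (limma adjusted p = 0.00234). The latter was 0.08 after quantile normalization (limma adjusted p = 0.558) and 0.07 in the authors' values (limma adjusted p = 0.578), and so its call rests on the scaling. Pdgfb changed with age by 0.08 in normoxia (limma adjusted p = 0.621) and rose by 0.75 in hyperoxia (limma adjusted p = 4.1e-05) on the brighter probe, while the dimmer probe rose by 0.89 in normoxia (limma adjusted p = 4.24e-07) and changed by 0.17 in hyperoxia (limma adjusted p = 0.23).

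The question of the antimiR comparison was whether blocking miR-34a altered the steady-state level of its candidate target or of the other PDGF genes. None of the 6 genes passed the limma test for A34a against SCR in any of the 4 settings, and on the reported probes none had an unadjusted p below 0.05 (the dimmer Pdgfb probe is given further on). In normoxia at P5 the differences ran from -0.07 to 0.17 (lowest limma adjusted p = 0.466), where 0.136% of all probes were called. In hyperoxia at P5 they ran from -0.10 to 0.13 (lowest limma adjusted p = 0.647), beside 0.0639% of probes. At P14 they ran from -0.17 to 0.01 in normoxia (lowest limma adjusted p = 0.554), where 0% of probes were called although 4053 had an unadjusted p below 0.05, and from -0.16 to 0.43 in hyperoxia (lowest limma adjusted p = 0.416), where 2.66% were called.

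The upper end of the last range is Pdgfra, whose difference of A34a from SCR in hyperoxia at P14 was 0.43 (SE 0.28, 95% interval -0.17 to 1.04, limma adjusted p = 0.48). Replicate 2 of the A34a group carried it: its Pdgfra level was 2.28, and the other 3 mice averaged 0.67. Without that mouse, a choice made after seeing the data, the difference was 0.03 (SE 0.10, limma adjusted p = 0.918). In the same mouse Pdgfrb was 3.77 against a mean of 3.42 in the other 3, Pdgfc -0.44 against -0.91, and Pdgfa 5.70 against 5.95. With all 4 mice the P14 interval leaves room for a difference in Pdgfra of up to 1 log2 unit, and the missed threshold does not show that the antimiR left the gene as it was. The P5 differences of Pdgfra were 0.01 in normoxia (95% interval -0.14 to 0.16) and -0.05 in hyperoxia (-0.20 to 0.10). In normoxia at P14 it was 0.01 (-0.60 to 0.61), with the SE pooled over the P14 groups.

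**Figure D5:**
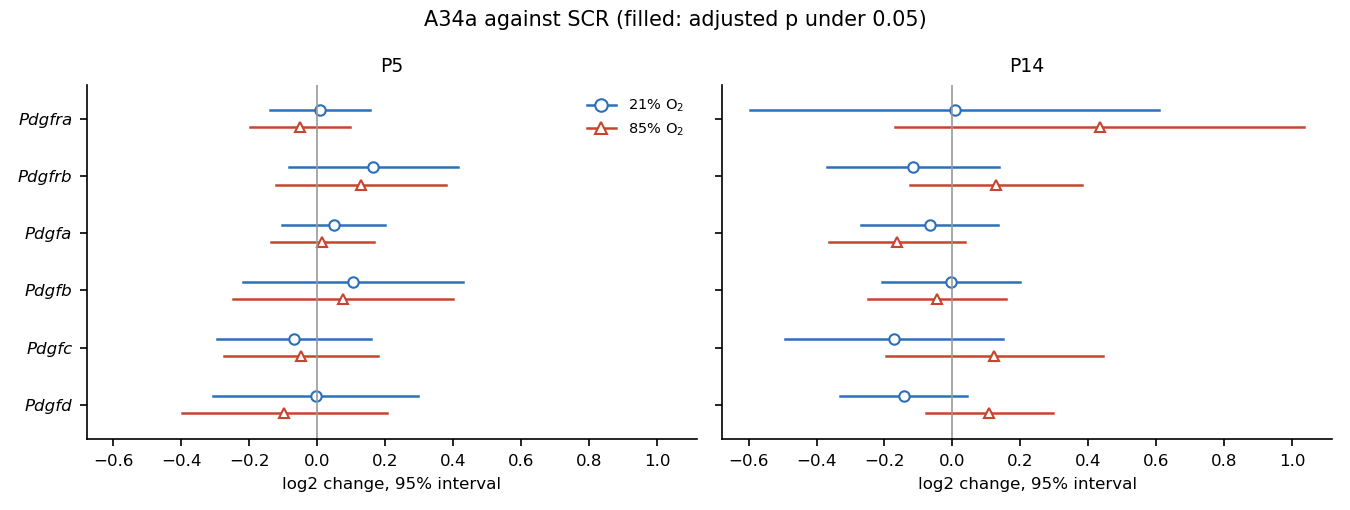
Log2 difference of A34a from SCR for the 6 PDGF genes at P5 and P14, in 21% and 85% O2, with 95% intervals from limma (4 mice a group). Every interval includes 0, and the one that reaches furthest from it is that of Pdgfra in hyperoxia at P14, from -0.17 to 1.04.

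The interaction, which asks whether the oxygen effect differed between A34a and SCR mice, was not called for any of the 6 genes by limma. For P5 it ran from -0.09 to 0.02 (lowest limma adjusted p = 0.874) and for P14 from -0.10 to 0.43 (lowest limma adjusted p = 0.35), and no reported probe had an unadjusted p below 0.05. The value of 0.43 is that of Pdgfra, and it was 0.02 without replicate 2 of the hyperoxic A34a group. Of all probes 0.0556% were called at P5 and 0.0884% at P14. The numbers behind the antimiR shares moved with the scaling: among tested probes with a value under every scaling, the P14 interaction went from 34 calls to 1 after quantile normalization or in the authors' values and 0 after normexp, A34a in hyperoxia at P14 from 1017 to 335 after normexp, and A34a in normoxia at P5 from 43 to 363 after normexp. On the dimmer Pdgfb probe A34a differed from SCR by -0.30 in hyperoxia at P5, with an unadjusted limma p of 0.0157 and an adjusted p of 0.287.

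The wider pathway was read from 4 lists of genes that act before, at or after the receptors. Their counts stand beside the shares of all tested probes called in SCR mice, which were 17.5% higher and 26.4% lower in P5 mice, with 28.4% higher and 32.4% lower in P14 mice, and their medians beside -0.07 and -0.06 for all probes. The first is reported for 7 genes of ligand processing, in which proteases open latent PDGF-C and PDGF-D and proprotein convertases cut PDGF-A and PDGF-B. In hyperoxic SCR mice 3 rose and 2 fell at P5 (median log2 difference -0.12), whereas 4 rose and 2 fell at P14 (median 0.40). Plau, the urokinase that activates PDGF-D, rose 2.57-fold at P5 and 6.77-fold at P14 (limma adjusted p = 0.00106 and 7.97e-10). St14, the membrane protease matriptase, which can also open PDGF-D, rose 1.77-fold and 2.63-fold.

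The other members called at both ages differed in direction. Pcsk6, a proprotein convertase, was 1.31-fold and then 2.08-fold lower. Plat, the tissue plasminogen activator that opens PDGF-C, rose by 0.79 at P5 and by 0.56 at P14. Furin, the main proprotein convertase of PDGF-A and PDGF-B, fell by 0.29 in P5 mice (limma adjusted p = 0.00212) and rose by 0.40 in P14 mice (limma adjusted p = 0.00314). Plat and Furin were chosen after their values were seen. Of these 7 genes 5 were called at both ages, 3 higher, 1 lower and 1 in opposite directions.

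The second list holds 20 genes of receptor signalling: adaptors, kinases, phosphatases, transcription factors and co-receptors. At P5 4 of them rose and 7 fell in hyperoxic SCR mice (median -0.15), and at P14 8 rose and 10 fell (median -0.12). Stat3, a transcription factor activated by many cytokine and growth factor receptors, rose 1.71-fold and 2.73-fold (limma adjusted p = 7.08e-06 and 2.72e-06). Pik3ca, the catalytic subunit of PI3-kinase, was 1.19-fold and 2.06-fold lower (limma adjusted p = 0.0329 and 2.62e-06). Pdgfrl, a receptor-like protein without a kinase domain, was 1.29-fold and 1.99-fold lower. Stat5b was 1.21-fold and 1.71-fold lower, opposite to Stat3. The list had no common direction.

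The third list holds 10 genes that restrain receptor signalling. In SCR mice 4 rose and 2 fell at P5 (median 0.02), and 3 rose and 3 fell at P14 (median 0.14), the latter close to the shares of all probes. Spry4, an inhibitor of the Ras pathway that is itself induced by growth factors, was 3.59-fold and 2.96-fold lower (limma adjusted p = 2.53e-07 and 2.47e-07). Ptpn1 and Ptpn2, phosphatases that act on receptor tyrosine kinases, rose 1.32-fold and 1.24-fold at P5 and 1.32-fold and 1.39-fold at P14. Grb10, an adaptor that dampens receptor signals, was 1.41-fold lower in P5 mice, but 1.83-fold higher in P14 mice.

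The fourth list holds 10 immediate early genes, which growth factors and many other stimuli induce within minutes. In SCR mice 7 rose and 0 fell at both P5 and P14 (medians 0.63 and 0.59), and 5 rose at both ages. One mouse of the hyperoxic P5 SCR group, replicate 4, had a mean centred level of the list of 0.61, against -0.12 to -0.08 in the other 3. Without it, a choice made after seeing the data, 6 rose and 0 fell at P5 (median 0.48). Fosb rose 2.88-fold and 2.8-fold (limma adjusted p = 0.00629 and 2.43e-05). Junb rose 2.58-fold and 1.97-fold, Ier3 rose 1.68-fold and 1.32-fold, and Klf4 rose 1.42-fold and 1.64-fold. In A34a mice 2 of the 10 rose in hyperoxia at P5 and 8 at P14, where 17.2% and 27.8% of all probes were called higher, and none fell. The mean centred level of the list in the hyperoxic P14 A34a mice was 0.48, 1.2, 0.64 and 1.04 (replicates 1 to 4), against 0.39 to 0.55 in the SCR mice. Without replicate 2, a choice made after seeing the data, 7 rose and 0 fell at P14 in A34a mice (median 0.74). The SCR and A34a counts were not tested against each other, and the median P5 interaction of the list was -0.51, with no gene called.

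For the antimiR, 1 gene of the 4 pathway lists was called in normoxia at P5, where 0.136% of all probes were, and 2 in hyperoxia at P14, beside 2.66% of all probes. Klf4 rose with A34a in normoxia at P5 (log2 0.54, limma adjusted p = 0.0438). Nck1, an adaptor of receptor tyrosine kinases, rose by 0.69 (limma adjusted p = 0.00173) and Egr1 by 1.26 (limma adjusted p = 0.042) in hyperoxia at P14. The interaction at P14 was called for Nck1 alone among these 47 genes (0.76, limma adjusted p = 0.0417), a call that was lost after quantile normalization (limma adjusted p = 0.0694), after normexp (0.119) and in the authors' values (0.064). The Egr1 call was lost under the same settings (limma adjusted p = 0.0574, 0.0655 and 0.0571), whereas Nck1 in hyperoxia and Klf4 in normoxia passed in all of them. These settings were applied to the 3 genes after seeing the data. Without replicate 2 of the hyperoxic P14 A34a group Nck1 differed by 0.71 (limma adjusted p = 0.00141) and by 0.78 in the interaction (limma adjusted p = 0.0262), and Egr1 by 1.16, no longer called (limma adjusted p = 0.0768). Egr1, Nck1 and the array left out were chosen after their values were seen.

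Markers of the cells that send and receive PDGF were read beside the members in SCR mice, against the same shares of all probes (17.5% higher and 26.4% lower at P5, 28.4% and 32.4% at P14) and medians of -0.07 and -0.06. Of 10 markers of secondary crest myofibroblasts, the cells that descend from Pdgfra-carrying precursors, 1 rose and 6 fell in hyperoxia at P5 (median -0.38), and 4 rose and 5 fell at P14 (median -0.11). Of 10 markers of matrix fibroblasts and lipofibroblasts 2 rose and 3 fell at P5 (median -0.22), and 3 rose and 6 fell at P14 (median -0.27). Of 10 pericyte markers, whose cells carry Pdgfrb, 2 rose and 2 fell at P5 (median -0.08), and 2 rose and 4 fell at P14 (median -0.23). The pericyte median at P5 is close to that of all probes, and its counts lie near their shares. The part that cell number had in the receptor values was not tested.

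On the ligand side, 8 of 10 epithelial markers rose and 0 fell at P5 (median 0.48), and 7 rose and 0 fell at P14 (median 0.50). Of 10 endothelial markers 3 rose and 3 fell at P5 (median 0.00), and 5 rose and 2 fell at P14 (median 0.18). Epithelium is a source of Pdgfa and endothelium of Pdgfb, and whether their shares of the lung moved the ligand values was not tested. Platelets, the store of PDGF protein in blood, had 1 of 8 markers higher at P5 (median 0.19), while at P14 2 of them rose and 1 fell (median -0.09). Of 8 macrophage markers 4 rose and 2 fell at P5 (median -0.01), and 4 rose and 4 fell at P14 (median -0.82).

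One library stood apart in a cell type that whole lung should hardly contain. In SCR replicate 4 in normoxia at P5 the mean centred level of 6 skeletal muscle markers was 4.55, against -1.16 to 1.35 in the other 31 mice. These markers also differed with oxygen at P14, where in SCR mice 3 of 6 fell (median -1.20) and the normoxic levels of 0.21 to 1.35 lay above the hyperoxic ones of -0.60 to -0.25, and their part in the PDGF values was not tested. At P5 2 of 6 fell (median -2.07). In the mouse that stood apart the Pdgfra level of 1.95 lay within the range of its group, while its Pdgfa level of 4.98 was the lowest and its Pdgfc level of -1.39 the highest of the 4. Without this mouse the P5 oxygen difference in SCR mice was 0.49 for Pdgfa (limma adjusted p = 6.74e-05) and 0.78 for Pdgfc (limma adjusted p = 2.59e-06). When this mouse, replicate 2 of the hyperoxic P14 A34a group, and 2 arrays that differed in brightness from the rest of their groups (P14 normoxia, SCR replicate 4 and A34a replicate 1) were left out, a choice made after seeing the data, each count of called PDGF genes was the same in all 13 comparisons. A further array, of A34a replicate 3 in hyperoxia at P5, was also dim, with a 75th percentile of 9.2 against 9.77 to 9.93 in its group, and leaving it out alone gave the same count in the 3 comparisons it enters within P5.

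Over the 32 arrays, the named genes whose centred profile lay closest to that of Pdgfra were Sbk3, Lrrn2 and Ang2 (a gene of the angiogenin family), with root mean square differences of 0.30, 0.32 and 0.34 log2 units. For Pdgfrb they were Nkain1, Meis3 and Esam, at 0.15, 0.15 and 0.16. These distances are descriptions, and the smaller ones for Pdgfrb go with its smaller range of group means.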

How the data were processed

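Whole-lung RNA of 32 mice was hybridised to one-colour Agilent arrays, 1 mouse an array. The authors scanned them with Agilent Feature Extraction 10.7.3.1, and the deposited per-array files hold processed signal intensity for 62976 spots, background-subtracted, with probe sequences and mm9 positions. The authors' deposited series table holds log2 values of the same probes, which here correlated with the scanner values at 0.997 to 1 and whose columns share 1 distribution, as after quantile normalization. The study's methods name a different RNA kit from the sample records.

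Control spots and spots marked as outliers (0.211%) were left out, no spot was saturated, and spots of a probe were averaged. Values were log2 processed signal minus the array's 75th percentile. A probe was tested where some group had it well above background in each of its 4 mice (35982 at P5, 38455 at P14, 39160 over both ages) with limma 3.58.1 in R 4.3.3. Each age had its own fit of 16 arrays, and age contrasts used all 32, with no covariate and Benjamini-Hochberg adjustment. Between 33614 and 40786 probes an array were well above background, and 4 arrays a group limit the precision. The methods randomised pups to litters, and which of these mice shared one is not given in the sources used here. A list was summarised by its genes' brightest probes, and listed genes were named where called for oxygen in SCR mice at both ages, at most 4 a list by size of change; 1 gene of the processing list is not reported here, and that list's counts leave it out. The genes with the nearest profile (3 for each receptor) were named by root mean square difference. On simulated data with few changed probes, 54% of 1.5-fold and 82% of 2-fold changes were recovered at P5 (35942 probes). At P14 37% and 65% were recovered (38317 probes), both for oxygen in SCR mice. In the data 15799 probes were called for that comparison at P5 and 23382 at P14. The adjustment is stricter when few probes change, so these shares do not measure the power of the oxygen tests. The PDGF genes, the lists and the tests were chosen with earlier results of these data known. Alternatives were other background corrections, normalizations, filters, probe rules, weights, tests and sets of arrays.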

Additional observations from a re-analysis of the deposited data

Results flagged for a closer look

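Pdgfd in replicate 4 of the hyperoxic SCR group at P14 was flagged because its level of -2.20 lay apart from the other 3 mice (-1.97, -1.96 and -2.0), with a gap of 0.833 of the group's range, just past the critical value of Dixon's test. It was the 1 group flagged of 48 tested (6 genes in 8 groups), and chance flags about 5% of groups.

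The oxygen effect in SCR mice differed between the ages, by the limma interaction over all 32 arrays, for 4 genes. The change from P5 to P14 was -1.20 for Pdgfra, 0.67 for Pdgfb on its brighter probe, 1.03 for Pdgfc and -0.86 for Pdgfd. Each age and oxygen level had its own slide, so that these differences and slide cannot be told apart.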

How the results depend on the processing

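The numbers of PDGF genes called and the 4 receptor differences moved by at most 1.5 times under all 315 alternatives run for them. The count for oxygen in SCR mice ran from 4 to 6 at P5 and was always 5 at P14, in A34a mice it ran from 4 to 6 at each age, and the antimiR and interaction counts were always 0. For age the counts ran from 4 to 6 in normoxia and from 3 to 5 in hyperoxia, and for oxygen by age from 3 to 4. Leaving out 1 mouse moved the receptor differences to between -0.68 and -0.56 (SCR, P5), -1.84 and -1.74 (SCR, P14), -0.74 and -0.60 (A34a, P5), and -1.92 and -1.47 (A34a, P14). A fit with the replicate number as a replicate block gave 5 called genes in each oxygen comparison and 4 in each age comparison. It gave 0 for the antimiR, and all these numbers were the same as without it. The deviations of same-numbered mice correlated over 0.1 in 4 of 24 pairs at P5 and 6 of 24 at P14. Between normoxic SCR and A34a mice of P14, which shared a slide, the values were 0.418, -0.056, -0.354 and 0.499. With both signs among them, the numbers are not taken as pairs.

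One gene reversed: the change of the Pdgfb oxygen effect with age was -0.026 (limma adjusted p = 0.868) on the mean of both probes, which respond at opposite ages. That mean also made the P5 rise of Pdgfb pass, at 0.43 in SCR and 0.26 in A34a mice, and its normoxic rise with age, at 0.49. It lowered other Pdgfb values, each still called. For oxygen at P14 0.85 became 0.40 in SCR mice and 0.81 became 0.42 in A34a mice. The hyperoxic rise with age in SCR mice went from 0.75 to 0.46. Normexp brought the P5 difference of Pdgfd to 0.44 in SCR and 0.37 in A34a mice, both still called. Pdgfa in normoxia by age passed on the mean of its probes, with array weights, without P5 SCR replicate 2 (0.21, limma adjusted p = 0.0466) and without P14 SCR replicate 4 (0.21, limma adjusted p = 0.0462). The methods' approximate test lost Pdgfc in SCR (adjusted p = 0.057) and Pdgfd in A34a mice (0.0614) for oxygen at P5, and Pdgfrb in A34a mice at P14 (0.0691). Pdgfc by age in hyperoxia passed by that test and when only the groups compared were fitted (limma adjusted p = 0.0303). The causes were not tested. Among values not called either way, 72 changed sign, in 22 of 78 gene and comparison pairs. Slide could not be used as a block, since each slide held 1 age and 1 oxygen level. Every member probe was well above background on every array, so detection set no bound on a member. The sizes for dim probes still moved with the processing, as given above for Pdgfd. Over all alternatives the P14 oxygen difference of Pdgfc ran from 1.39 to 1.78 in SCR mice. In A34a mice it ran from 1.60 to 2.305, and it was called throughout in both.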
